A study of Homo sapiens with 16 samples.

Results

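MYC and 9 partners of its transcription factor network were followed across the 8 groups of an RNA-seq series on LNCaP cells, an androgen-responsive human prostate cancer line. The 10 genes, MYC, MAX, MNT, MGA, MXD1, MXD3, MXD4, MXI1, MLX and MLXIP, were chosen by symbol, each by the Ensembl ID that carries it in the count table. They are 10 of 60252 genes in the table, and all 10 were among the 23830 genes with enough counts to be tested. The series holds 16 libraries, 2 in each group. In the siOGT1 and siOGT2 groups OGT, the enzyme that attaches O-GlcNAc to proteins, was knocked down for 48 hours with 1 of 2 siRNAs. In the OSMI2 groups the cells received a small-molecule inhibitor of OGT, which the labels list in the siRNA field; the sources used here do not give its dose or time, or say whether those cells had a scrambled siRNA too. The Scr groups received a scrambled siRNA. Each of these 4 arms was treated for 4 hours with 0.5 μM AT7519, an inhibitor of cyclin-dependent kinases that include CDK9, or with the solvent DMSO. All groups come from the same cell line, and nothing in the labels says that the 2 replicates were separate cultures. The p-values therefore measure how far these samples spread, which may be technical.

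MYC drives cell growth and ribosome production by binding DNA as a dimer with MAX. MAX is the shared partner of the network: the MXD proteins, MXI1, MNT and MGA also dimerise with it, bind the same E-box DNA and recruit repressors of transcription, so that they oppose MYC at common sites. MLX is a MAX-like protein that pairs with the nutrient sensor MLXIP (also called MondoA) and with some MXD proteins. MYC is a driver in prostate cancer, and its RNA and protein are short-lived, which is why it is often followed when CDK9, the kinase that releases paused RNA polymerase II, is inhibited.

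The element that the network binds, the E-box CACGTG, is printed here as it stands near the start of the 3 members with a match and near 2 known MYC targets that carry results further on. Windows of 300 bases, 250 before to 50 after each RefSeq start, were searched on GRCh38.p14; the motif reads the same on both strands. Of 9 members with a window (14 windows in all), 3 held it, against 8.78% of 27305 genes and 7.26% of 35116 windows. Each sequence runs 5′ to 3′ on the gene's strand with the E-box in capitals.
MNT, chr17:2401236-2401265, minus strand: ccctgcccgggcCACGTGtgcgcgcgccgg
MLX, chr17:42567038-42567067, plus strand: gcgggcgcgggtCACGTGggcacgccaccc
MXD4, chr4:2262330-2262359, minus strand: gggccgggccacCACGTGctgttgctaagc
LDHA, chr11:18394366-18394395, plus strand: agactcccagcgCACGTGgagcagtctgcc
MRTO4, chr1:19251807-19251836, plus strand: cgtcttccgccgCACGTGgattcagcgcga
The motif begins 193 bases before the start in MNT, 50 in MLX and 238 in MXD4. It begins 185 bases before it in LDHA, whose window holds 2 matches, and 14 bases after it in MRTO4. NCL and PA2G4, targets with results of the same kind further on, gave no sequence to print. No match was found in the windows of MAX, MGA, MXD1, MXD3, MXI1 and MLXIP, which says only that these letters are not in those windows.

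Libraries held 40216911 to 147019364 counts. OGT, the gene both siRNAs target, checked the labels: under DMSO siOGT1 libraries held 20.7 and 14.6 CPM (counts divided by the library total and by its TMM factor), siOGT2 libraries 36.0 and 29.8 and OSMI2 libraries 349 and 336, against 274 and 263 for Scr. All 9 markers of prostate epithelium were expressed, with a summed level of 4414 to 5420 CPM in AT7519 libraries and 4312 to 5262 CPM in DMSO libraries. Summed basal markers reached at most 1.08 CPM and leukocyte markers at most 0.811 CPM in any library. The 4 stromal markers summed to 15.0 to 43.2 CPM in AT7519 libraries and 12.9 to 30.9 CPM in DMSO libraries, nearly all of it COL1A1 (up to 40.8 CPM), while COL1A2 and DCN stayed at 0.0742 CPM or less. The 3 neuroendocrine markers summed to 12.8 to 20.5 CPM and 12.9 to 17.6 CPM, mostly ENO2, with CHGA at most 0.192 CPM. The part of these genes in the results was not tested. TMM factors, which correct for differences in RNA composition, were 0.864 to 0.952 in AT7519 libraries and 1.05 to 1.13 in DMSO libraries. The values below are therefore relative levels after this correction, and neither plain shares of a library nor amounts per cell. Fewer cells and less RNA per cell cannot be told apart in bulk RNA. The composition shift was followed by other scalings, which are given beside a member's result where they change its call. Library totals only moved the median log2 fold change of all genes with AT7519 to -0.27 in siOGT1, -0.30 in siOGT2, -0.22 in OSMI2 and -0.30 in Scr, and upper-quartile scaling moved it to 0.09, 0.07, 0.20 and 0.10, against -0.05, -0.03, 0.02 and -0.05 with TMM. Of the 40 AT7519 fold changes of members, 8 turned their sign with library totals only, 8 with upper-quartile scaling and 1 with RLE scaling, so a fold change near 0 has no fixed direction.

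Per kilobase of exon, MYC (ENSG00000136997, chromosome 8) had the highest mean level of the network over all libraries, 45.9 CPM per kilobase. MLX followed at 24.0 CPM per kilobase and MXD4 at 15.6. MAX, the partner of MYC, stood at 9.66, MXI1 at 8.97 and MLXIP at 7.82 CPM per kilobase. The lower end was made up of MGA at 4.51, MXD3 at 3.38, MNT at 3.14 and MXD1 at 1.44 CPM per kilobase. Thus the activator MYC had the highest level per kilobase of exon. Its antagonists were spread: MXD3, MNT and MXD1 were the lowest, while MXD4 stood above MAX. The exon length is that of all annotated transcripts of a gene merged, so this order depends on the annotation. MXD1 varied most between groups, with a ratio of 3.21 between its highest and its lowest group mean, followed by MXD3 with 2.64 and MNT with 2.02. MXD4 (1.36) and MAX (1.37) varied least.

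**Figure D1:**
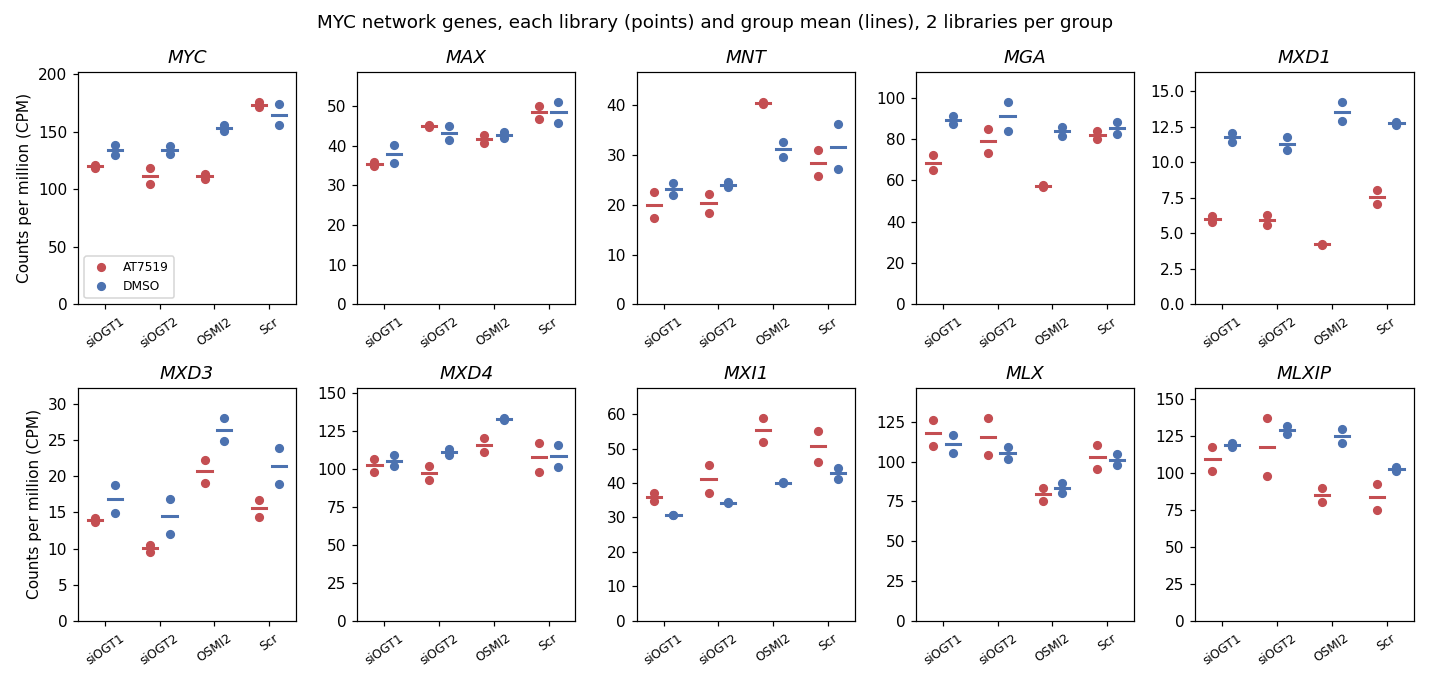
Level of each of the 10 members in every library, in CPM (vertical axis, from 0), with 1 panel per gene; arms run from siOGT1 to Scr along the horizontal axis, AT7519 libraries are left (red) and DMSO libraries right (blue) of each arm, points are libraries and lines are group means. The group means of MYC are highest in the Scr arm, though under DMSO its libraries (155.5 and 174 CPM) overlap those of OSMI2 (150.4 and 155.9 CPM). MXD1 is lower in every AT7519 library (4.21 to 8.05 CPM) than in every DMSO library (10.9 to 14.2 CPM).

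MYC is the activator of the network, and its RNA was called lower with AT7519 in 2 of the 4 arms, OSMI2 and siOGT2. In the OSMI2 arm MYC stood at 109 and 113 CPM with AT7519, against 150.4 and 156 CPM with DMSO, a log2 fold change of -0.46 (SE 0.08, edgeR quasi-likelihood adjusted p = 6.78e-05). In siOGT2 it stood at 118 and 105 CPM with AT7519, against 131 and 138 CPM with DMSO, and fell by 0.27 on the log2 scale (SE 0.08, edgeR adjusted p = 0.00918). Both AT7519 libraries were below both DMSO libraries in these arms. In siOGT1 the values were 121 and 119 CPM with AT7519 and 129 and 139 CPM with DMSO, a log2 fold change of -0.16 that did not pass (edgeR adjusted p = 0.112), but did with library totals only (-0.39, adjusted p = 0.000182) and with the replicate number as a block within each agent (-0.16, 0.0397), called the block within agent in what follows. In Scr the libraries overlapped, at 176 and 172 CPM with AT7519 and 156 and 174 CPM with DMSO (log2 fold change 0.08, SE 0.08, edgeR adjusted p = 0.467). With upper-quartile scaling the Scr value became 0.23 and passed (adjusted p = 0.0184). Scaled to library totals only, it turned to -0.17 (0.0508), so its direction depends on the scaling. With upper-quartile scaling the siOGT2 value became -0.16 and did not pass (adjusted p = 0.0892). The siOGT2 call was also lost without replicate 2 of siOGT2 under DMSO (-0.24, adjusted p = 0.0783) or with AT7519 (-0.18, adjusted p = 0.132).

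The AT7519 response of MYC was set against that of Scr in a test of the difference itself. In OSMI2 the response was lower by 0.54 on the log2 scale (a difference of -0.54, SE 0.11, edgeR adjusted p = 0.0281). The differences in siOGT1 (-0.24, adjusted p = 0.851) and siOGT2 (-0.34, adjusted p = 1) did not pass. The OSMI2 difference did not pass without 1 of 6 libraries: Scr with DMSO replicate 1 (-0.46, adjusted p = 0.196) or 2 (-0.62, 0.0534), Scr with AT7519 replicate 1 (-0.59, 0.0554), OSMI2 with DMSO replicate 1 (-0.57, 0.0831) or 2 (-0.51, 0.134), or OSMI2 with AT7519 replicate 2 (-0.61, 0.0648). Its direction held in all of these fits.

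Against Scr, MYC was lower in all 3 arms when AT7519 was present, by 0.53 (siOGT1, SE 0.08, edgeR adjusted p = 8.67e-05), 0.64 (siOGT2, adjusted p = 5.79e-05) and 0.64 (OSMI2, adjusted p = 3.45e-05), as log2 differences of -0.53, -0.64 and -0.64. Every library of these 3 groups (105 to 121 CPM) was below both Scr libraries with AT7519. Under DMSO the differences were smaller: -0.30 in siOGT1 (adjusted p = 0.0190), -0.29 in siOGT2 (adjusted p = 0.0400) and -0.11 in OSMI2, which did not pass (adjusted p = 0.605). The siOGT1 call under DMSO was lost without Scr replicate 2 (-0.22, adjusted p = 0.246), siOGT1 replicate 1 (-0.25, 0.177) or siOGT1 replicate 2 (-0.35, 0.0726). The siOGT2 call under DMSO was lost when any of 14 of the 16 libraries was left out (-0.38 to -0.22), and with RLE scaling (-0.28, 0.0563), upper-quartile scaling (-0.26, 0.0579), library totals only (-0.24, 0.0574) and the compared groups only (-0.27, 0.0518). The calls with AT7519 passed in every one of these fits. The 3 comparisons share the Scr libraries, so they are not independent of each other.

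Over the 8 groups MYC was ordered as Scr with AT7519 (174 ± 2.85 CPM, SD, n = 2 here and in the rest of the order), Scr with DMSO (165 ± 13.03), OSMI2 with DMSO (153 ± 3.83), siOGT2 with DMSO (134 ± 4.86), siOGT1 with DMSO (134 ± 6.67), siOGT1 with AT7519 (119.8 ± 1.64), siOGT2 with AT7519 (112 ± 9.44) and OSMI2 with AT7519 (111 ± 2.72). Only the steps from OSMI2 with DMSO to siOGT2 with DMSO and from siOGT1 with DMSO to siOGT1 with AT7519 exceeded the larger SD of the neighbours.

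MAX (ENSG00000125952, chromosome 14), the obligate partner of MYC, was not called for AT7519 in any arm under TMM scaling. In the OSMI2 arm it stood at 42.6 and 40.7 CPM with AT7519 and at 41.9 and 43.4 CPM with DMSO (log2 fold change -0.03). In Scr it stood at 46.8 and 49.98 CPM with AT7519 and at 45.8 and 50.9 CPM with DMSO (log2 fold change 0.00, edgeR adjusted p = 0.994). When libraries were scaled to their totals only, MAX passed as lower in siOGT1 (-0.32, adjusted p = 0.00886), OSMI2 (-0.28, 0.0178) and Scr (-0.24, 0.0345). MAX was lower in siOGT1 than in Scr both with AT7519 (34.99 and 35.8 CPM in siOGT1; log2 difference -0.45, SE 0.09, edgeR adjusted p = 0.00142) and with DMSO (35.6 and 40.1 CPM in siOGT1; -0.36, adjusted p = 0.0142). No siOGT1 library reached the lowest Scr library, and siOGT2 did not pass in either agent, at 45.1 and 44.8 CPM with AT7519 and 41.5 and 44.97 CPM with DMSO. The DMSO call was lost without siOGT1 replicate 1 (-0.27, adjusted p = 0.186) or Scr replicate 2 (-0.28, 0.181). MAX shares 184 bases of exon with a gene on the other strand.

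MXD1 (ENSG00000059728, chromosome 2), a MAX partner that recruits the SIN3 repressor complex and is known for its rise in differentiating cells, fell with AT7519 in all 4 arms. In OSMI2 it stood at 4.25 and 4.21 CPM with AT7519, against 12.9 and 14.2 CPM with DMSO (log2 fold change -1.68, SE 0.14, edgeR adjusted p = 5.93e-09). In siOGT1 it stood at 5.80 and 6.22 CPM with AT7519, against 12.04 and 11.5 CPM with DMSO (-0.97, adjusted p = 5.67e-06). In siOGT2 it stood at 5.61 and 6.27 CPM with AT7519, against 11.8 and 10.9 CPM with DMSO (-0.93, adjusted p = 9.25e-06). The smallest fall was that of Scr, with 8.05 and 7.06 CPM with AT7519, against 12.8 and 12.7 CPM with DMSO (-0.76, SE 0.13, adjusted p = 6.58e-05). No AT7519 library of any arm reached a DMSO library, and these 4 calls passed under every alternative and without any 1 library.

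The fall of MXD1 was larger in OSMI2 than in Scr by 0.92 on the log2 scale (a difference of -0.92, SE 0.19, edgeR adjusted p = 0.0227). With AT7519, MXD1 was lower in OSMI2 than in Scr (-0.83, adjusted p = 0.000430), while no arm passed under DMSO. The difference in response missed the threshold without the same 6 libraries as for MYC, with values of -0.85 to -0.99 and adjusted p up to 0.134: Scr with DMSO replicate 1 (-0.93) or 2 (-0.91), Scr with AT7519 replicate 1 (-0.90), OSMI2 with DMSO replicate 1 (-0.99) or 2 (-0.85), or OSMI2 with AT7519 replicate 2 (-0.96). MXD1 shares 237 bases of exon on its own strand with SNRNP27, which moved the other way and stood at 28.5 and 25.4 CPM with AT7519 and 19.5 and 19.5 CPM with DMSO in OSMI2. The sources used here do not say how the authors' counting treated reads in such shared stretches.

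MXD3 (ENSG00000213347, chromosome 5), an MXD protein linked to proliferating cells, was lower with AT7519 in siOGT2 and Scr. In siOGT2 it stood at 10.5 and 9.56 CPM with AT7519, against 16.9 and 12.1 CPM with DMSO (log2 fold change -0.53, edgeR adjusted p = 0.0114). In Scr it stood at 16.8 and 14.3 CPM with AT7519, against 23.9 and 18.9 CPM with DMSO (-0.46, SE 0.16, adjusted p = 0.0203). In siOGT1 (-0.28, adjusted p = 0.166) and OSMI2 (-0.35, adjusted p = 0.0719) it did not pass. Both passed with library totals only (-0.51, 0.0139 in siOGT1 and -0.60, 0.00377 in OSMI2), and with the block within agent (-0.26, 0.0265, and -0.36, 0.00257). The OSMI2 value also passed with no low-count filter (-0.40, 0.00688), the compared groups only (-0.39, 0.0171), the replicate block (-0.36, 0.00889) and in 9 of 16 fits with 1 library left out. In all 4 arms both AT7519 libraries lay below both DMSO libraries. The siOGT2 call was lost without siOGT2 with DMSO replicate 1 (-0.26, adjusted p = 0.285) or with AT7519 replicate 2 (-0.46, 0.0719). The Scr call was lost without Scr with DMSO replicate 1 (-0.29, 0.252), without Scr with AT7519 replicate 2 (-0.34, 0.168) and with upper-quartile scaling (-0.31, 0.0966).

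Between arms, MXD3 was lower in siOGT2 than in Scr, by -0.63 with AT7519 (edgeR adjusted p = 0.0191) and by -0.56 with DMSO (adjusted p = 0.0469) as log2 differences. The call with AT7519 was lost without Scr replicate 1 (-0.53, 0.114) or siOGT2 replicate 2 (-0.57, 0.102) and with the compared groups only (-0.63, 0.0843). The DMSO call was lost without Scr replicate 1 (-0.39, 0.399) or 2 (-0.73, 0.0622), siOGT2 replicate 2 (-0.35, 0.510), or OSMI2 replicate 1 (-0.57, 0.0601) or 2 (-0.57, 0.0608), and with upper-quartile scaling (-0.53, 0.0511), library totals only (-0.51, 0.0711) and the compared groups only (-0.54, 0.0595). MXD3 in siOGT1 under DMSO (-0.34) passed with the replicate block (adjusted p = 0.0355) and the block within agent, and in no other fit. MXD3 had its highest level in OSMI2 with DMSO, at 28.0 and 24.9 CPM. Against Scr, OSMI2 with AT7519 did not pass for MXD3 (0.42, 0.0884), but did with upper-quartile scaling (0.51, 0.0314), library totals only (0.52, 0.0355), no low-count filter (0.37, 0.0424), the replicate block (0.41, 0.0125) and the block within agent (0.41, 0.00252). It shares 1158 bases of exon with PRELID1 on the other strand, a more abundant gene that was higher with AT7519 (102 and 79.5 CPM, against 52.1 and 44.6 CPM with DMSO in Scr), and 926 bases with RAB24 on the same strand.

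MXD4 (ENSG00000123933, chromosome 4) and MXI1 (ENSG00000119950, chromosome 10) are MXD proteins expressed in many resting tissues. MXD4 was not called in any of the 13 comparisons in the main edgeR fit. Its values ran from 93.1 CPM in siOGT2 with AT7519 to 133 CPM in both OSMI2 libraries with DMSO, and its OSMI2 difference from Scr under DMSO was 0.29 (edgeR adjusted p = 0.0962). That difference passed in 7 of 9 alternatives (0.29 to 0.39, adjusted p of 0.00380 to 0.0432), DESeq2, upper-quartile scaling, library totals only and both blocks among them, and not with RLE scaling or limma voom. MXD4 was also called lower with AT7519 when library totals only were used, in siOGT1 (-0.27, 0.0128), siOGT2 (-0.46, 0.000153), OSMI2 (-0.45, 0.000164) and Scr (-0.26, 0.0124), where TMM gave -0.04, -0.19, -0.20 and -0.01. The siOGT2 and OSMI2 values passed with both blocks too, and that of OSMI2 also with no low-count filter (-0.25, 0.0239), the compared groups only (-0.24, 0.0193) and in 7 of 16 fits with 1 library left out. MXI1 was the one repressor of the MXD type that was called higher with AT7519: in OSMI2 it stood at 51.9 and 58.7 CPM with AT7519, against 40.2 and 40.03 CPM with DMSO (log2 fold change 0.46, SE 0.11, adjusted p = 0.00114), which did not pass with library totals only (0.21, adjusted p = 0.0659). In siOGT1 (0.23, adjusted p = 0.0896), siOGT2 (0.26, 0.0517) and Scr (0.24, 0.0646) the AT7519 libraries were also above the DMSO libraries, and whether the change passed depended on the fit. All 3 passed with RLE scaling (0.27, 0.29 and 0.29; adjusted p = 0.0455, 0.0307 and 0.0296), upper-quartile scaling (0.36, 0.37 and 0.39; 0.00483, 0.00434 and 0.00218), DESeq2 (0.0423, 0.0266 and 0.0254) and the block within agent (0.0338, 0.0178 and 0.0226). None passed with library totals only, where siOGT2 and Scr stood at -0.01. With 1 library left out, 2 of 16 fits passed in siOGT1, 7 in siOGT2 and 7 in Scr.

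MXI1 was lower in siOGT1 than in Scr in both agents. With AT7519 it stood at 37.0 and 34.8 CPM in siOGT1, against 55.02 and 46.2 CPM in Scr (log2 difference -0.50, edgeR adjusted p = 0.00226). With DMSO both siOGT1 libraries held 30.6 CPM, against 41.2 and 44.4 CPM in Scr (-0.48, adjusted p = 0.00529), a call that was lost without Scr replicate 2 (-0.43, 0.0687) or siOGT1 replicate 2 (-0.48, 0.0583). In siOGT2, 45.1 and 37.0 CPM with AT7519 and 34.1 and 34.5 CPM with DMSO did not pass against Scr (-0.30, adjusted p = 0.0868, and -0.32, 0.101). Both passed with the block within agent (0.0179 and 0.0178), and that with AT7519 also with DESeq2 (0.0476).

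MNT (ENSG00000070444, chromosome 17), the most widely expressed MAX-bound antagonist of MYC, differed in direction between the siRNA arms and OSMI2. With AT7519 the siOGT1 libraries held 17.4 and 22.6 CPM, the siOGT2 libraries 18.4 and 22.2 CPM and the OSMI2 libraries 40.3 and 40.6 CPM, against 25.9 and 31.1 CPM for Scr. It was lower in siOGT1 (log2 difference -0.51, edgeR adjusted p = 0.0155) and siOGT2 (-0.49, adjusted p = 0.0372) and higher in OSMI2 (0.50, adjusted p = 0.0213), and no siOGT1 or siOGT2 library reached the Scr pair. Each of these calls was lost without some single libraries, though its direction held in those fits. That of siOGT1 was lost without siOGT1 replicate 1 (-0.35, 0.177) or Scr replicate 2 (-0.36, 0.178), and that of siOGT2 without siOGT2 replicate 1 (-0.37, 0.230) or Scr replicate 2 (-0.35, 0.285). That of OSMI2 was lost without OSMI2 replicate 1 (0.46, 0.118) or 2 (0.47, 0.131) or Scr replicate 1 (0.32, 0.294), and passed under every alternative that kept all libraries. The differences of siOGT1 (-0.43, 0.0657) and siOGT2 (-0.46, 0.0883) did not pass with library totals only, nor with the compared groups only (-0.49, 0.0822, and -0.49, 0.159), and that of siOGT2 also missed with upper-quartile scaling (-0.50, 0.0516).

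AT7519 raised MNT in OSMI2, to 40.3 and 40.6 CPM, against 29.7 and 32.6 CPM with DMSO (log2 fold change 0.38, SE 0.14, edgeR adjusted p = 0.0339). That call failed with library totals only (0.13, adjusted p = 0.548) and without any 1 OSMI2 library (0.30 to 0.44, adjusted p of 0.0609 and more) or Scr with AT7519 replicate 1 (0.33, 0.0506). Under DMSO, MNT was lower in siOGT1 than in Scr (22.0 and 24.4 CPM, against 27.2 and 36.2 CPM; -0.45, adjusted p = 0.0447). The Scr pair was wide, and without its replicate 2 the difference was -0.24 (adjusted p = 0.509). In 9 of 16 fits with 1 library left out it did not pass, nor with upper-quartile scaling (-0.42, 0.0910) or library totals only (-0.40, 0.123). MNT was called lower with AT7519 under library totals only in siOGT1 (-0.43, 0.0404) and siOGT2 (-0.51, 0.0165), where TMM gave -0.21 (0.262) and -0.24 (0.176). The siOGT2 difference under DMSO (-0.40, 0.133) passed with no low-count filter (0.0208) and with both blocks (0.0264 and 0.00736). MNT shares 1065 bases of exon with a gene on the other strand.

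MGA (ENSG00000174197, chromosome 15), a large MAX partner that also carries a T-box domain and scaffolds the repressor complex PRC1.6, fell with AT7519 in siOGT1 and OSMI2. In OSMI2 it stood at 57.9 and 56.9 CPM with AT7519, against 85.8 and 81.6 CPM with DMSO (log2 fold change -0.54, edgeR adjusted p = 6.27e-05). In siOGT1 it stood at 64.8 and 72.3 CPM with AT7519, against 87.2 and 91.1 CPM with DMSO (-0.38, SE 0.09, adjusted p = 0.00233). Both groups lay apart in these arms, and both calls passed under every alternative and without any 1 library. In siOGT2 the libraries overlapped, at 73.1 and 85.0 CPM with AT7519 and 84.1 and 97.9 CPM with DMSO (-0.20, adjusted p = 0.0792), a value that passed with the replicate block (0.0418), the block within agent (0.0219) and library totals only (-0.47, 0.000827). In Scr they overlapped as well, at 80.1 and 83.8 CPM with AT7519 and 82.6 and 88.3 CPM with DMSO (-0.06, adjusted p = 0.632), where library totals only gave -0.30 (0.0170). With AT7519, MGA was lower in OSMI2 than in Scr (-0.51, adjusted p = 0.000929). The difference of OSMI2 from Scr in the response was -0.48 and did not pass (adjusted p = 0.105). It passed in 5 of 9 alternatives, namely no low-count filter (-0.54, 0.00647), DESeq2 (-0.51, 0.0174), the compared groups only (-0.54, 0.0263), the replicate block (-0.48, 0.0317) and the block within agent (-0.48, 0.00543), and in 4 fits with 1 library left out.

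MLX (ENSG00000108788, chromosome 17), the MAX-like hub of the nutrient-sensing branch, was not called for AT7519 in any arm, apart from OSMI2 with library totals only (-0.32, adjusted p = 0.0380, against -0.07 under TMM). It was lower in OSMI2 than in Scr with AT7519, at 75.5 and 83.4 CPM in OSMI2, against 95.7 and 111 CPM in Scr (log2 difference -0.38, SE 0.10, edgeR adjusted p = 0.0180). Under DMSO the values were 80.2 and 86.4 CPM in OSMI2 and 97.7 and 105 CPM in Scr (-0.28, adjusted p = 0.164). The DMSO difference passed with the compared groups only (0.0497), the replicate block (0.0218) and the block within agent (0.00352). Both OSMI2 pairs lay below the Scr pairs. The call with AT7519 was lost without OSMI2 replicate 1 (-0.36, 0.0900) or Scr replicate 2 (-0.30, 0.111), with upper-quartile scaling (-0.29, 0.103) and with library totals only (-0.28, 0.129). MLX shares 770 bases of exon with PSMC3IP on the other strand, which stood at 11.6 and 11.0 CPM in OSMI2 and 14.8 and 14.3 CPM in Scr with AT7519.

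MLXIP (ENSG00000175727, chromosome 12), which carries MLX to the promoters of glucose-response genes, fell with AT7519 in OSMI2. It stood there at 80.4 and 89.8 CPM with AT7519, against 120.1 and 129.8 CPM with DMSO (log2 fold change -0.55, SE 0.13, edgeR adjusted p = 0.00128), a call that passed in every alternative fit. In Scr it stood at 74.5 and 92.6 CPM with AT7519 and 104 and 101 CPM with DMSO, and did not pass (-0.30, adjusted p = 0.0623). That value passed with library totals only (-0.54, 0.0139), no low-count filter (-0.29, 0.00807), the replicate block (-0.30, 0.0205), the block within agent (-0.30, 0.000804) and in 3 fits with 1 library left out. With AT7519 it was higher than in Scr in siOGT1 (101 and 117 CPM; log2 difference 0.39, adjusted p = 0.0372) and siOGT2 (97.9 and 137 CPM; 0.49, adjusted p = 0.0214). Both calls were lost without replicate 1 of Scr with AT7519, where the differences were 0.22 in siOGT1 and 0.32 in siOGT2. The siOGT1 call was also lost without siOGT1 replicate 2 (0.28, 0.259) or OSMI2 with AT7519 replicate 1 (0.38, adjusted p = 0.05003), and the siOGT2 call without siOGT2 replicate 2 (0.22, 0.314). Neither passed with upper-quartile scaling (0.0758 in siOGT1 and 0.0595 in siOGT2), library totals only (0.0604 and 0.0582) or the compared groups only (0.0709 and 0.205). Under DMSO no arm passed against Scr for MLXIP (0.21 in siOGT1, 0.33 in siOGT2 and 0.28 in OSMI2), but all 3 did with the compared groups only (0.0313, 0.0106 and 0.0185) and the block within agent (0.0388, 0.00281 and 0.00948).

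**Figure D2:**
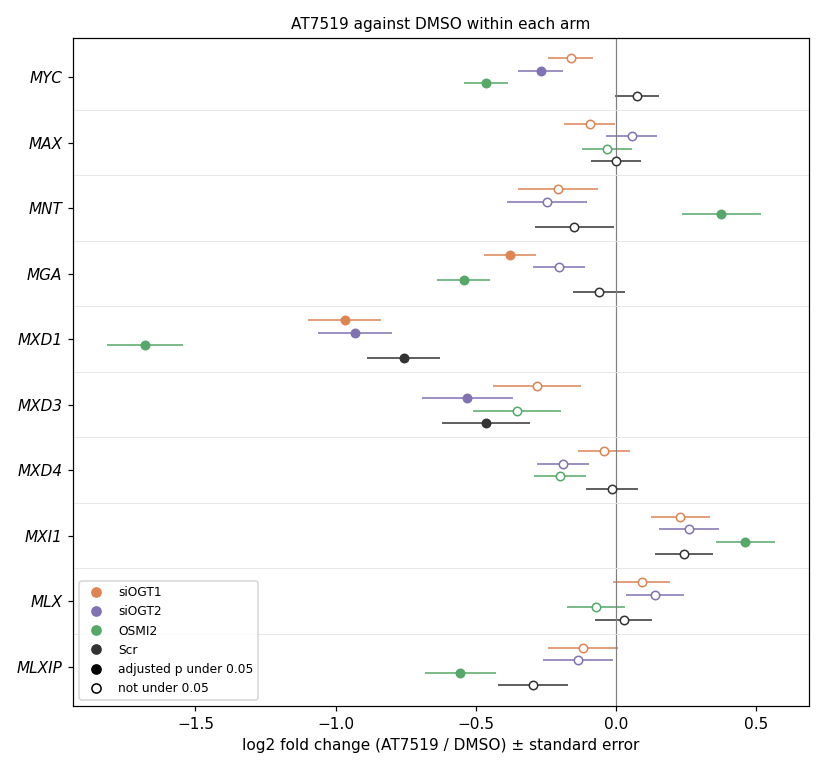
Log2 fold change of AT7519 against DMSO (horizontal axis) for each of the 10 members in the 4 arms; points are edgeR estimates, bars are 1 SE, and filled points passed an adjusted p under 0.05. MXD1 lies below 0 in all 4 arms (-0.76 to -1.68), and MYC lies below 0 and passes in siOGT2 (-0.27) and OSMI2 (-0.46).

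Counted over the network, AT7519 changed 2 of 10 members in siOGT1 (MGA and MXD1, lower), against 41.5% of all tested genes called in that comparison (22% lower). It changed 3 of 10 in siOGT2 (MYC, MXD1 and MXD3, lower), against 45% of all genes (22.8% lower). In OSMI2 it changed 6 of 10 (MNT and MXI1 higher; MYC, MGA, MXD1 and MLXIP lower), against 47.2% of all genes (23.6% in each direction). In Scr it changed 2 of 10 (MXD1 and MXD3, lower), against 46.5% of all genes (24.6% lower). The share in OSMI2 was near the background and those in the other arms were below it. The median log2 fold change of the members was -0.14 in siOGT1, -0.20 in siOGT2, -0.28 in OSMI2 and -0.04 in Scr, beside -0.05, -0.03, 0.02 and -0.05 for all tested genes. These counts depend on the scaling: with library totals only, 7 members passed in siOGT1, 6 in siOGT2, 8 in OSMI2 and 6 in Scr, all of them lower. In OSMI2 the 2 higher calls, MNT and MXI1, were lost under that scaling, and MAX, MXD3, MXD4 and MLX were called lower. Without Scr with DMSO replicate 1 the Scr count was 1, as MXD3 no longer passed, and without either library of siOGT2 with AT7519 it was 4. The difference of the response from that in Scr passed for 2 members in OSMI2, MYC and MXD1, against 0.747% of all genes (0.663% lower and 0.0839% higher), and for 0 without any 1 of the 6 libraries named for each of them. It passed for none in siOGT1 (0.0504% of all genes, 0.0378% higher and 0.0126% lower) or siOGT2 (0% of all genes) by edgeR or DESeq2, where 2 and 1 members had an unadjusted p under 0.05.

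Between arms with AT7519 present, 5 of 10 members differed from Scr in siOGT1 (MYC, MAX, MNT and MXI1 lower, MLXIP higher). The share of all genes was 19.2% (9.19% lower and 9.97% higher). In siOGT2 it was 4 of 10 (MYC, MNT and MXD3 lower, MLXIP higher), against 8.16% of all genes (3.48% lower and 4.68% higher). In OSMI2 it was 5 of 10 (MYC, MGA, MXD1 and MLX lower, MNT higher), against 14.2% of all genes (9.01% lower and 5.18% higher). MYC was the one member lower in all 3 arms, MNT was called in opposite directions, and MXD4 was called in none of the 3. The siOGT2 count was 2 without Scr replicate 1 or siOGT2 replicate 2, and the OSMI2 count was 3 without OSMI2 replicate 1. Under DMSO, 4 of 10 members were lower in siOGT1 (MYC, MAX, MNT and MXI1), against 5.51% of all genes lower and 10.4% called in either direction. In siOGT2, 2 of 10 were lower (MYC and MXD3), against 2.38% of all genes lower and 4.3% called in either direction. The siOGT1 count was 0 without Scr replicate 2 and 1 without siOGT1 replicate 1 or without siOGT1 replicate 2, and the siOGT2 count was 0 with upper-quartile scaling, with library totals only, or without Scr replicate 1 or 2, siOGT2 replicate 2, or OSMI2 replicate 1 or 2. In OSMI2 under DMSO edgeR called 0 of 10 members, against 2.98% of all genes; 3 had an unadjusted p under 0.05, DESeq2 called 1 and limma voom 0. The median log2 difference of the members with AT7519 was -0.29 in siOGT1, -0.22 in siOGT2 and -0.10 in OSMI2, beside -0.03, 0.01 and 0.02 for all genes.

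**Figure D3:**
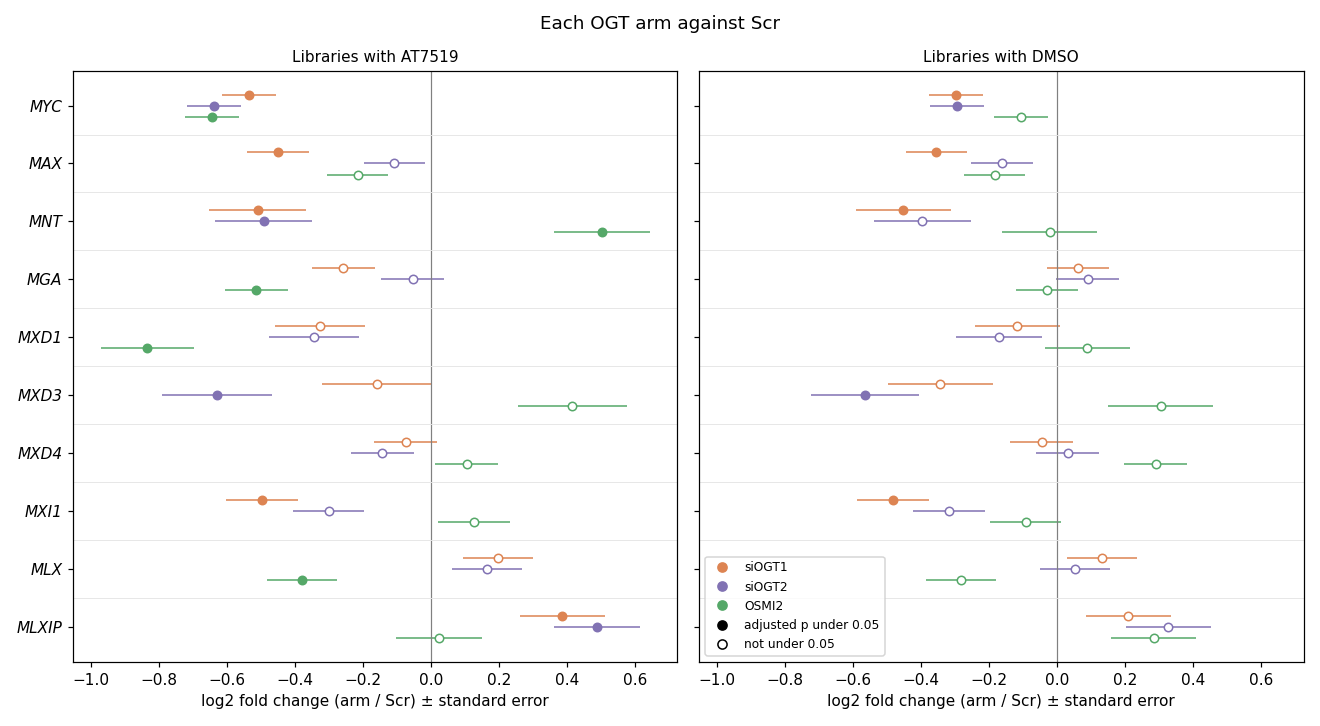
Log2 difference from Scr (horizontal axis) for each of the 10 members in siOGT1, siOGT2 and OSMI2, with AT7519 (left panel) and with DMSO (right panel); points are edgeR estimates, bars are 1 SE, and filled points passed an adjusted p under 0.05. MYC lies at -0.53 to -0.64 in the left panel, and MNT lies at -0.51 and -0.49 in the siRNA arms and at 0.50 in OSMI2.

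Outside the 10 members, the other MYC family genes were looked at next. MYCL, the family member amplified in some small-cell lung cancers, fell with AT7519 in all 4 arms. It stood at 1.42 and 1.21 CPM with AT7519, against 7.03 and 6.90 CPM with DMSO in OSMI2 (log2 fold change -2.39, edgeR adjusted p = 2.63e-09). In siOGT1 it stood at 1.25 and 1.12 CPM with AT7519, against 6.27 and 6.33 CPM with DMSO (-2.42, adjusted p = 3.78e-09). In siOGT2 it stood at 1.05 and 0.834 CPM with AT7519, against 6.37 and 6.31 CPM with DMSO (-2.75, SE 0.19, adjusted p = 1.20e-09). All AT7519 libraries lay below all DMSO libraries, Scr included, at 1.52 and 1.64 CPM with AT7519, against 8.76 and 8.19 CPM with DMSO (-2.42, SE 0.18, adjusted p = 1.65e-09). MYCL shares 226 bases of exon with a gene on the other strand. MLXIPL, the paralog of MLXIP known as ChREBP, did not pass in any arm (-0.29 in siOGT1, -0.32 in siOGT2, 0.45 in OSMI2 and 0.03 in Scr), and MYCN was too low to be tested.

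Of 8 transcripts of the MYC locus on the list, 5 were tested. PVT1, a long noncoding RNA next to MYC, was higher with AT7519 in all 4 arms. It stood at 50.1 and 53.0 CPM with AT7519, against 24.2 and 25.7 CPM with DMSO in OSMI2 (log2 fold change 1.05, edgeR adjusted p = 9.71e-07). Scr libraries held 39.1 and 46.7 CPM with AT7519, against 24.0 and 25.9 CPM with DMSO (0.78, adjusted p = 3.24e-05), and the folds were 0.58 in siOGT1 and 0.77 in siOGT2. No DMSO library of PVT1 reached an AT7519 library of any arm. The remaining calls with AT7519 were those of CASC11, POU5F1B and CASC8, each lost without 1 or more single libraries. CASC11, a noncoding RNA of the locus, had log2 fold changes of -1.10 in siOGT1 (adjusted p = 0.0485) and -1.34 in OSMI2 (0.0181). The OSMI2 call was lost without OSMI2 with DMSO replicate 1 (-1.11, 0.122) or with AT7519 replicate 1 (-1.44, 0.0739) or 2 (-1.32, 0.0685). The siOGT1 call of CASC11 passed in just 1 of the fits with 1 library left out, that without siOGT1 with AT7519 replicate 2, and was lost with RLE scaling (-1.06, 0.0551), upper-quartile scaling (-0.96, 0.0808), no low-count filter (0.105), DESeq2 (0.0785), limma voom (0.0622) and the compared groups only (0.0797). POU5F1B had -1.64 in siOGT2 (0.00518) and -1.18 in Scr (0.0265). Without siOGT2 with AT7519 replicate 1 the siOGT2 value was -0.94 (0.0943), and the Scr value was -0.92 (0.168) without Scr with AT7519 replicate 1, -0.99 (0.151) without Scr with DMSO replicate 1 and -1.02 (0.0562) with upper-quartile scaling. POU5F1B shares 848 bases of exon with PCAT1 on the same strand and is a near copy of POU5F1, so its counts are uncertain. CASC8 had 0.60 in OSMI2 (0.0201), which was 0.39 without OSMI2 with AT7519 replicate 1 (0.257), 0.41 without OSMI2 with DMSO replicate 1 (0.207) and 0.35 with library totals only (0.199).

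Cofactors that MYC uses to open chromatin moved in both directions with AT7519. Of 14 tested, 5 were higher and 4 lower in siOGT1, 5 and 3 in siOGT2, 5 and 5 in OSMI2, and 5 and 5 in Scr, beside 19.4% to 24.6% of all tested genes per direction and arm. In the same order of arms, library totals only gave 1 and 6, 1 and 8, 3 and 7, and 2 and 7, and upper-quartile scaling 5 and 2, 5 and 2, 6 and 2, and 5 and 2. The Scr count of lower genes was 1 without Scr with AT7519 replicate 1, 2 without Scr with DMSO replicate 1 and 3 without either OSMI2 library with AT7519; its higher count was 3 without either of these Scr libraries. The higher count was 2 in siOGT2 without its DMSO replicate 2, where the lower count was 5 without its AT7519 replicate 2. In siOGT1 the higher count was 3 without either DMSO library or AT7519 replicate 1, the last of which left 2 lower. In OSMI2 the higher count was 3 without DMSO replicate 2 or AT7519 replicate 1, and the lower count 3 without either DMSO library or AT7519 replicate 2. BPTF, the chromatin reader of the NURF complex, had the smallest adjusted p and fell by about the same amount everywhere: 1.28 in siOGT1, 1.27 in siOGT2, 1.38 in OSMI2 and 1.29 in Scr on the log2 scale (edgeR adjusted p of 1.20e-08 or less in each arm). It stood at 48.4 to 59.5 CPM in AT7519 libraries, against 117 to 138 CPM in DMSO libraries. RUVBL1, an ATPase of the TIP60 and INO80 complexes, was higher in all 4 arms (0.36, 0.43, 0.51 and 0.34 in siOGT1, siOGT2, OSMI2 and Scr), but with library totals only the siOGT1 (0.14) and Scr (0.09) values did not pass. The acetyltransferase EP300 was lower in siOGT1 (-0.76), siOGT2 (-0.54) and OSMI2 (-0.89). Its value in Scr is not given here. ZBTB17, also called MIZ1, through which MYC represses genes, was lower in siOGT1 than in Scr with AT7519 (-0.47, adjusted p = 0.00873), a call lost without siOGT1 replicate 2 (-0.40, 0.103) or Scr replicate 2 (-0.46, 0.0534).

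The SIN3 and histone deacetylase corepressors of the MXD proteins and MNT were split as well. Of 12 tested, 4 were higher and 5 lower with AT7519 in siOGT1, 4 and 5 in siOGT2, 6 and 5 in OSMI2, and 4 and 4 in Scr, beside 19.4% to 24.6% of all tested genes per direction and arm. Library totals only gave 3 and 7, 3 and 7, 2 and 5, and 3 and 7. SIN3A, the scaffold that the MXD proteins bind, stood at 31.4 and 26.1 CPM with AT7519, against 74.4 and 65.6 CPM with DMSO in OSMI2 (log2 fold change -1.28, edgeR adjusted p = 4.29e-09). Scr libraries held 49.7 and 45.3 CPM with AT7519, against 77.4 and 74.4 CPM with DMSO (-0.68, adjusted p = 1.10e-05), and it fell by 0.90 in siOGT1 and by 0.73 in siOGT2. No AT7519 library of SIN3A reached a DMSO library. The deacetylase HDAC1 was higher in all 4 arms (0.54, 0.55, 0.64 and 0.57 in siOGT1, siOGT2, OSMI2 and Scr), and ARID4B, a SIN3 subunit that shares 1603 bases of exon with RBM34 on the same strand, was lower in all 4 (-1.05, -0.73, -1.13 and -0.83).

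Of 9 partners of MGA in PRC1.6, 1 was higher and 3 lower with AT7519 in siOGT1, 2 and 2 in siOGT2, 3 and 3 in OSMI2, and 1 and 3 in Scr, beside 19.4% to 24.6% of all tested genes per direction and arm. Without OSMI2 with AT7519 replicate 2 the higher count in OSMI2 was 1, and without any 1 AT7519 library of another arm that in Scr was 2. Library totals only gave 1 and 4, 1 and 5, 0 and 4, and 0 and 3, and with upper-quartile scaling 3 and 3, 2 and 2, 3 and 2, and 4 and 2. RYBP, which links the complex to its ubiquitin ligase, stood at 16.9 and 16.6 CPM with AT7519, against 64.0 and 65.7 CPM with DMSO in OSMI2 (log2 fold change -1.95, edgeR adjusted p = 8.31e-09). Scr libraries held 38.6 and 28.3 CPM with AT7519, against 73.4 and 75.0 CPM with DMSO (-1.15, adjusted p = 3.34e-06). Its folds in siOGT1 (-1.35) and siOGT2 (-1.14) passed too. RNF2, the ubiquitin ligase itself, was lower with AT7519 in all 4 arms (-0.84, -0.82, -0.93 and -0.79 in siOGT1, siOGT2, OSMI2 and Scr), and CBX3, a heterochromatin protein that is also among the MYC targets, was higher in all 4 (0.46, 0.48, 0.41 and 0.38), though with library totals only it did not pass in OSMI2 (0.16) and Scr (0.14).

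Of 12 genes that control the stability of MYC protein, 4 were higher and 2 lower with AT7519 in siOGT1, 5 and 2 in siOGT2, 4 and 3 in OSMI2, and 4 and 3 in Scr, beside 19.4% to 24.6% of all tested genes per direction and arm. Library totals only gave 2 and 3, 4 and 3, 3 and 5, and 4 and 6, and no library left out moved one by over 1.5 times. AURKA, which shields MYC-family proteins from degradation, and GSK3B, the kinase that marks MYC for it, both fell in every arm. GSK3B stood at 50.9 and 48.4 CPM with AT7519, against 172 and 176 CPM with DMSO in OSMI2 (log2 fold change -1.81, edgeR adjusted p = 2.39e-10), and its folds were -1.45 in siOGT1, -1.51 in siOGT2 and -1.48 in Scr. AURKA had folds of -1.03 in siOGT1, -1.13 in siOGT2, -1.86 in OSMI2 and -1.60 in Scr. FBXW7, the ubiquitin ligase subunit that binds the marked protein, was higher in siOGT2 (0.90, adjusted p = 1.47e-05) and Scr (0.84, adjusted p = 2.37e-05). Its values in siOGT1 and OSMI2 are not given here. MYC protein was not measured.

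Known MYC targets, 61 genes that include many of ribosome assembly, all passed the count filter. Under TMM scaling, 29 were higher and 8 lower with AT7519 in siOGT1, 33 and 5 in siOGT2, 31 and 9 in OSMI2 and 32 and 7 in Scr. The counts depend on the scaling: in the same order, library totals only gave 13 and 13, 16 and 15, 19 and 15, and 17 and 13. Upper-quartile scaling gave 37 and 4, 37 and 5, 43 and 7, and 42 and 4. Of all tested genes, 19.4% were higher and 22% lower in siOGT1, 22.2% and 22.8% in siOGT2, 23.6% and 23.6% in OSMI2 and 21.8% and 24.6% in Scr, under TMM. The median log2 fold change of the targets was 0.21 in siOGT1, 0.33 in siOGT2, 0.26 in OSMI2 and 0.27 in Scr, and became -0.01, 0.07, 0.01 and 0.03 with library totals only. Library totals only lowered the median of all genes as well, as given above, and that of the targets stayed above it in each arm. The lower count was 3 in Scr without Scr with DMSO replicate 2, and 5 in siOGT1 without siOGT1 with AT7519 replicate 1 or DMSO replicate 2.

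Against Scr, the MYC targets were mostly lower in OSMI2. With AT7519, 0 were higher and 40 of 61 lower, against 9.01% of all genes lower, with a median log2 difference of -0.36 beside 0.02 for all genes. Under DMSO, 0 were higher and 31 lower, against 2.49% of all genes lower, with a median of -0.37 beside -0.01. MYC itself was lower in OSMI2 with AT7519 (-0.64) and not called under DMSO (-0.11). NCL, the nucleolar protein nucleolin, stood at 1119 and 1067 CPM in OSMI2, against 1536 and 1662 CPM in Scr under DMSO (-0.55, edgeR adjusted p = 0.00177). LDHA, lactate dehydrogenase, whose E-box is printed above, stood at 559.6 and 566 CPM in OSMI2, against 803 and 863 CPM in Scr under DMSO (-0.57, adjusted p = 0.00329). MRTO4, a ribosome assembly factor whose E-box is also printed above, stood at 37.7 and 37.6 CPM in OSMI2, against 51.4 and 58.7 CPM in Scr (-0.55, adjusted p = 0.00230), and PA2G4 at 94.5 and 86.4 CPM, against 128 and 128 CPM (-0.50, adjusted p = 0.00252). In these 4 genes both OSMI2 libraries lay below both Scr libraries. All 4 missed the threshold without Scr replicate 2, with log2 differences of -0.50 for NCL, -0.52 for LDHA, -0.45 for MRTO4 and -0.51 for PA2G4. Without OSMI2 replicate 2, LDHA (-0.58, adjusted p = 0.0567) and PA2G4 (-0.45, 0.0783) missed it too. CACGTG was found in the windows of 27 of the 51 targets that have one (52.9%).

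The count of lower MYC targets in OSMI2 moved with single libraries and with the scaling, while the median stayed below 0. Under DMSO it was 0 without Scr replicate 2, 2 without OSMI2 replicate 2 and 8 without OSMI2 replicate 1, with medians of -0.31, -0.34 and -0.40. It was 11 with upper-quartile scaling and 9 with library totals only, where the medians were -0.30 and -0.27. With AT7519 it was 26 under both of these scalings and 24 to 47 when 1 library was left out.

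In the siRNA arms fewer targets differed from Scr. With AT7519, 4 were higher and 13 lower in siOGT1, against 9.97% and 9.19% of all genes, and 1 and 11 in siOGT2, against 4.68% and 3.48%. These counts depended on the fit: with the compared groups only they were 3 and 8 in siOGT1 and 0 and 1 in siOGT2. With the block within agent they were 7 and 21, and 4 and 24. They also moved with single libraries left out. Under DMSO, 2 were higher and 7 lower in siOGT1, against 4.89% and 5.51% of all genes, and 0 and 10 in siOGT2, against 1.92% and 2.38%. ODC1, the first enzyme of polyamine synthesis, was lower than in Scr in both siRNA arms under DMSO, at 362 and 349 CPM in siOGT1 and 334 and 313 CPM in siOGT2, against 483 and 492 CPM in Scr (-0.46, edgeR adjusted p = 0.00541, and -0.59, adjusted p = 0.00180). The siOGT1 call of ODC1 was lost without siOGT1 replicate 2 (-0.43, 0.0748). When 1 library was left out, the number of lower targets under DMSO ran from 0 to 9 in siOGT1 and from 1 to 10 in siOGT2.

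**Figure D4:**
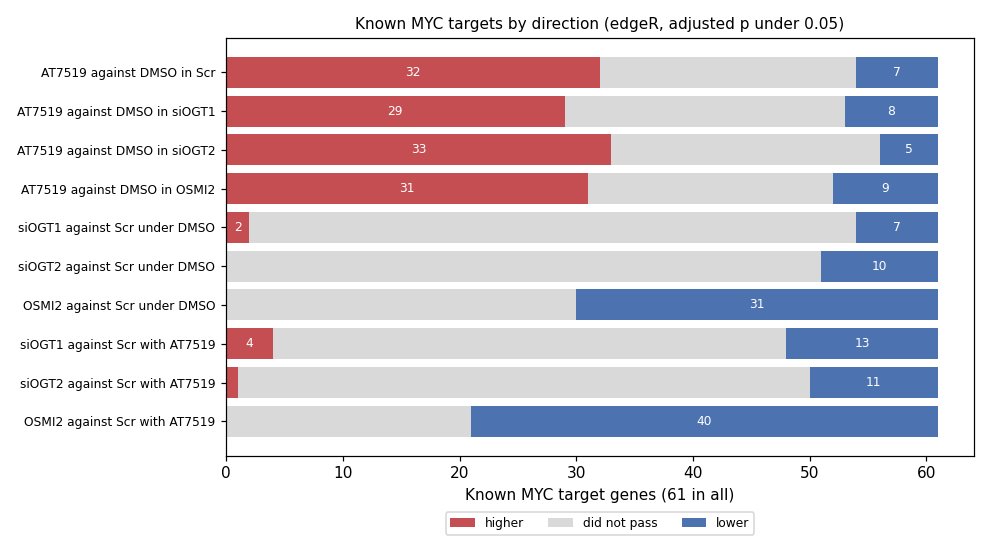
Number of the 61 known MYC targets that were higher, did not pass or were lower (edgeR adjusted p under 0.05, TMM scaling) in 10 comparisons; each bar sums to 61. In OSMI2 against Scr 40 were lower with AT7519 and 31 with DMSO. These counts were 26 and 11 with upper-quartile scaling and 26 and 9 with library totals only. The higher counts for AT7519 against DMSO (29 to 33) depend on the scaling as well.

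Of 9 genes known to be repressed by MYC, 2 were higher and 3 lower with AT7519 in siOGT1, 2 and 3 in siOGT2, 2 and 6 in OSMI2 and 2 and 4 in Scr, beside 19.4% to 24.6% of all tested genes per direction and arm. The lower count was 1 in siOGT1 without its DMSO replicate 2 and 1 in siOGT2 without its DMSO replicate 1. In Scr it was 1 without Scr with AT7519 replicate 2 and 2 without either DMSO library. The higher count was 1 in each arm without its DMSO replicate 1, and also without AT7519 replicate 2 in siOGT2, OSMI2 and Scr and without DMSO replicate 2 in OSMI2. Under library totals only there were 1 and 5, 0 and 5, 1 and 6, and 1 and 4. GADD45B, a stress-induced gene, had folds of -2.88 in siOGT1, -3.35 in siOGT2, -3.38 in OSMI2 and -2.28 in Scr on the log2 scale. NDRG2, a tumour suppressor candidate, was higher in all 4 arms (0.48, 0.44, 0.66 and 0.51), though not in siOGT2 with library totals only (0.17, adjusted p = 0.104). CDKN1B, which encodes the cell cycle inhibitor p27, stood at 39.4 and 32.0 CPM with AT7519, against 103 and 101 CPM with DMSO in OSMI2 (-1.51, edgeR adjusted p = 3.39e-07). In siOGT1 it stood at 67.7 and 49.8 CPM with AT7519, against 79.5 and 79.1 CPM with DMSO. In siOGT2 the values were 63.2 and 49.5 CPM, against 79.1 and 79.2 CPM, and tests for these 2 arms are not given here. Scr libraries held 72.0 and 54.9 CPM with AT7519, against 89.1 and 91.0 CPM with DMSO (-0.51, adjusted p = 0.00861), a call lost without Scr with AT7519 replicate 2 (-0.32, 0.143). The difference between the OSMI2 and Scr responses was -1.002 (adjusted p = 0.0327), and that of DUSP2, a MYC target and MAP kinase phosphatase, was -1.40 (adjusted p = 0.0338). Both differences missed the threshold without any 1 DMSO library of Scr or OSMI2, Scr with AT7519 replicate 1 or OSMI2 with AT7519 replicate 2, with values of -0.86 to -1.01 for CDKN1B and -1.17 to -1.52 for DUSP2. For CDKN1B the same held for each DMSO library of siOGT1 and siOGT2.

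The 4 glucose-response genes that MLXIP and MLX control are TXNIP, ARRDC4, KLF10 and HK2. With AT7519, 1 was higher in siOGT1, 3 in siOGT2, 1 in OSMI2 and 1 in Scr, and none was called lower in the main edgeR fit, beside 19.4% to 24.6% of all tested genes per direction and arm. In siOGT2 the higher count was 1 without any 1 of 7 libraries, which are the 4 of siOGT2, both of siOGT1 with DMSO and Scr with DMSO replicate 1. In siOGT1 it was 0 without its DMSO or AT7519 replicate 1, and in OSMI2 it was 2 without its DMSO replicate 2 or AT7519 replicate 1. In Scr it was 0 without DMSO replicate 2 or either AT7519 library of Scr, 2 without either AT7519 library of siOGT2 and 3 without either of OSMI2; without Scr with DMSO replicate 1, 1 gene was lower. Under library totals only there were 0 and 0, 1 and 1, 1 and 0, and 0 and 1. KLF10, a transcription factor, was higher in siOGT2 (log2 fold change 0.67, edgeR adjusted p = 0.000198) and OSMI2 (0.58, adjusted p = 0.000669). Its value of 0.43 in siOGT1 (0.00840) became 0.36 without siOGT1 with DMSO replicate 1 (0.101), 0.38 without siOGT1 with AT7519 replicate 1 (0.0540) and 0.21 with library totals only (0.187), and 0.28 in Scr did not pass. The calls of the arrestin-like ARRDC4 in siOGT2 (0.31, 0.0441) and Scr (0.35, 0.0231) and of TXNIP, the thioredoxin-binding protein, in siOGT2 (0.65, 0.0481) all failed with library totals only (0.04, 0.11 and 0.38). Against Scr, HK2, hexokinase, was higher in siOGT1 with AT7519 (0.63, adjusted p = 0.00167). ARRDC4 was higher in siOGT1 under DMSO (0.52, 0.00926), but not without siOGT1 replicate 1 (0.46, 0.0870) or Scr replicate 2 (0.43, 0.129).

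Likeness of pattern was described by Pearson's r between the 8 group means of log2 CPM, over 9887 genes of sufficient level; the groups share agents and arms, so r is a description. The genes most like MYC were HMGXB3 (r = 0.93), POLR2M (0.91), ZBTB17 (0.91), SHROOM2 (0.91) and ALG10 (0.90). Nearest to MXD1 was SOCS6 (0.996), to MXI1 TRMT2B (0.993), to MNT CBR3-AS1 (0.987), to MGA SDHAF1 (0.986), to MLX FARP2 (0.985) and to MXD3 HMBOX1 (0.983). For MLXIP it was CLDND1 (0.975), for MAX DLGAP5 (0.962) and for MXD4 TAPBP (0.942). Within the network, MGA and MXD1 had the highest r (0.865), then MXD3 and MXD4 (0.859). MYC reached 0.674 with MXD1, 0.595 with MGA and 0.560 with MAX. The lowest values were those of MNT with MLX (-0.915), MXD4 with MLX (-0.845) and MXI1 with MLXIP (-0.842).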

How the data were processed

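RNA of LNCaP cells was measured in 16 libraries, and the values used are the whole-number raw counts that the authors deposited. Per the labels' protocols, the kit was strand-specific and the input total RNA. Per the submitters' processing notes, STAR, HTSeq and DESeq2 were used with hg19 and GRCh37; the sources used here give neither versions nor the strand setting of the counting. The authors' table of normalized counts was not used here. The members and gene lists were chosen with earlier results of these data known. Gene IDs were matched to a name table without their version, which named 40412 of 60252, and exon lengths and overlaps come from GENCODE v29 on GRCh38, so no coordinate is given from it. Promoter sequences are RefSeq's on GRCh38.p14.

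Tests were run in edgeR 4.0.16 (R 4.3.3): filterByExpr on the 8 groups (23830 genes kept), TMM scaling, 1 mean per group over all 16 libraries, glmQLFit (robust) and glmQLFTest, two-sided, with Benjamini-Hochberg adjustment over all tested genes and a threshold of 0.05. Standard errors (SE) were taken as |log2 fold change| divided by √F. The 13 comparisons set AT7519 against DMSO in each arm, each other arm against Scr within each agent, and the difference of each arm from Scr in the AT7519 response. The common biological coefficient of variation was 0.110, with 8 residual degrees of freedom. The tests were tried on simulated data before use. All members were named, OGT as the label check, and of each list up to 4 genes with the smallest adjusted p in a comparison. Lists of 4 or fewer were named whole. A gene of a longer list may therefore have changed in an arm for which it is not named. Likeness used log2 CPM with a prior count of 2 and genes with a mean of 3 or more. Alternatives comprised scaling by RLE, upper quartile or library totals, no low-count filter, DESeq2 1.42.0, limma 3.58.1 voom, fits of only the compared groups, a replicate block, and each library left out. A block within each agent, a crossed pairing and the recount of the gene lists were added after the data were seen. MYC has no promoter window in the table used.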

Additional observations from a re-analysis of the deposited data

Results flagged for a closer look

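The AT7519 response of MYC differed between OSMI2 and Scr in the test of the difference itself: -0.54 on the log2 scale (SE 0.11, edgeR quasi-likelihood adjusted p = 0.0281), with log2 fold changes of -0.46 in OSMI2 and 0.08 in Scr. The response of MXD1 differed in the same test by -0.92 (SE 0.19, adjusted p = 0.0227), with log2 fold changes of -1.68 in OSMI2 and -0.76 in Scr. Both were singled out because the effect of 1 agent differs between 2 arms. Both keep their direction in every fit with 1 library left out, at -0.62 to -0.46 for MYC and -1.06 to -0.85 for MXD1, and both miss the threshold in 6 of these 16 fits (adjusted p up to 0.196 for MYC and 0.134 for MXD1). The sources used here do not give the dose or time of OSMI2, or say whether its cells also had the scrambled siRNA that Scr received. The OSMI2 libraries carry TMM factors of 0.945 and 0.952 with AT7519 and 1.12 and 1.13 with DMSO. Differences between the replicates of OSMI2 were hardly related to those of Scr (r of 0.0837 with AT7519 and 0.0473 with DMSO). The part of these points in the differences was not tested.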

How the results depend on the processing

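Of 130 results for members, 35 passed the threshold; 22 of these passed under every alternative and 15 of them also with any 1 library left out. Of the 95 that did not pass, 57 passed under no setting. One result reversed: MAX with AT7519 in Scr, 0.00 under TMM, was -0.24 and passed with library totals only. The causes of the changes below were not tested. Library totals do not correct for RNA composition, and with them the median of all genes was -0.30 for AT7519 in Scr.

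Members called with AT7519 numbered 2 in Scr, 2 in siOGT1 and 3 in siOGT2. With library totals only they were 6, 7 and 6, and in OSMI2 the 2 higher and 4 lower calls became 0 higher and 8 lower. Against Scr under DMSO, siOGT2 had 2 called, and 1 with RLE scaling or the compared groups only, 0 with upper-quartile scaling or library totals only, and 4 with no low-count filter. OSMI2 had 0, and 1 with upper-quartile scaling, library totals only, no low-count filter or DESeq2, and 3 with the compared groups only. Against Scr with AT7519, siOGT1 had 5, and 3 with library totals only or the compared groups only; siOGT2 had 4, and 2 with upper-quartile scaling or library totals only and 1 with the compared groups only.

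With 1 library left out, counts of members called ranged for AT7519 from 2 to 3 in siOGT1, 2 to 4 in siOGT2, 5 to 8 in OSMI2 and 1 to 4 in Scr. Against Scr they ranged under DMSO from 0 to 4 in siOGT1, 0 to 3 in siOGT2 and 0 to 0 in OSMI2, and with AT7519 from 4 to 6, 2 to 4 and 3 to 5. For the difference of OSMI2 in the response the range was 0 to 3.

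Replicate numbers in the labels are not stated to pair samples, and AT7519 and DMSO libraries of the same number deviated together with r of -0.0107 in siOGT1, -0.135 in siOGT2, 0.434 in OSMI2 and 0.0402 in Scr. With the replicate block the count was 6 for AT7519 in siOGT2 and 2 for OSMI2 under DMSO, and it moved no other count of members by over 1.5 times. Within an agent the Scr, siOGT1 and siOGT2 arms deviated together (r of 0.603 to 0.734). OSMI2 hardly shared this, with r to those arms of 0.0837 to 0.178 with AT7519 and 0.0473 to 0.103 with DMSO. With the replicate block within agent the counts for AT7519 were 4 in Scr, 5 in siOGT1 and 7 in siOGT2. Under DMSO they were 5 in siOGT2 and 4 in OSMI2, and the difference of OSMI2 had 4. With the numbers of siOGT2 crossed, 3 members and 10172 genes were called for AT7519.

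Genes called over the whole table, which set the background shares, moved by over 1.5 times in these cases. For siOGT1 under DMSO 2479 became 3925 with the compared groups only. For siOGT2 under DMSO 1025 became 1586 with DESeq2 and 1633 with the compared groups only. For OSMI2 under DMSO 710 became 378 with upper-quartile scaling, 390 with library totals only, 1420 with DESeq2 and 1575 with the compared groups only, and 9 to 777 with 1 library left out. With AT7519, 4566 in siOGT1 became 2533 and 1945 in siOGT2 became 247 with the compared groups only. The differences in response had 12 in siOGT1 (118 with DESeq2, 100 with no low-count filter), 0 in siOGT2 (3 and 8) and 178 in OSMI2 (478 and 551). The split of higher and lower calls for AT7519 in Scr, 5206 and 5866, was 6714 and 4730 with upper-quartile scaling and 3024 and 8207 with library totals only.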
